A study of Homo sapiens with 3 samples.

Results

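Most reproducible TIA1 peaks in HEK293T cells stood alone, but 34 stretches of RNA carried 5 or more. These loci were found by sorting the authors' reproducible peaks by chromosome, strand and start, and by joining neighbours on the same strand across gaps of at most 10000 nt. Of 2253 peaks in 1570 loci, 259 peaks (11.5%) lay in the 34 loci with 5 or more. A further 782 peaks lay in 324 loci of 2 to 4, and 1212 had no neighbour within that distance. Members were chosen by the positions of peaks that the authors had selected on measured fold and p-value, so peak numbers, spacing and folds are descriptions and carry no test.

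The series is an eCLIP experiment, which crosslinks proteins to RNA in living cells with ultraviolet light and sequences the RNA that comes down with 1 of them. HEK293T, an established human embryonic kidney line with the SV40 large T antigen, was exposed to 600 mJ in batches of 20000000 cells. There were 2 replicates immunoprecipitated with anti-TIA1 and 1 input without immunoprecipitation, which appears only as the denominator of the authors' folds and tests. The labels call the replicates technical in one place and biological in another, give the antibody's catalogue number once to Msi1, and write both HEK293 and HEK293T, so the spread between replicates may be technical.

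TIA1 is an RNA-binding protein with RNA recognition motifs that prefer U-rich RNA. In the nucleus it is known to bind downstream of 5′ splice sites and to aid their recognition. In the cytoplasm it is known for holding back translation and for gathering in stress granules.

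Each peak carries a log2 fold over input, which is the mean of the replicates, and a −log10 p-value, which is the lower of the replicates. Both are the authors' own values, and the list holds peaks for which each is at least 3. At every member, the fold of 1 replicate was read from its own list and that of the other was derived from the mean. Read numbers were recovered from those values. Library totals recovered in this way were 2683407, 1997817 and 2851338 reads for replicate 1, replicate 2 and the input. Whole reads came out at 253 of the 259 peaks, with medians of 41 in replicate 1, 37 in replicate 2 and 2 in the input. Where the input number is 1, the input may have held no read, and adjoining peaks can share a read. Positions are hg19, counted from 1. Genes were named from known hg19 gene positions on the same strand, since no hg19 annotation was used here, and exons and introns were therefore not assigned.

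Among the 34 loci, 1 peak fell, by position, on a microRNA precursor, and its sequence is shown because RNA letters can be given for it without the genome. The peak is chr13:92003147-92003177 on the plus strand, in MIR17HG, the host RNA of a microRNA cluster. It starts near the 5′ end of the MIR19A hairpin and reaches through most of the 5p arm. In the RefSeq hairpin (GRCh38.p14), 5′ to 3′, capitals mark hsa-miR-19a-5p. In both mature forms capitals mark the seed, bases 2 to 8.
MIR19A hairpin: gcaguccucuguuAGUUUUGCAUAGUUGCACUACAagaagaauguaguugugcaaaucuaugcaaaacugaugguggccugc
hsa-miR-19a-5p: aGUUUUGCauaguugcacuaca
hsa-miR-19a-3p: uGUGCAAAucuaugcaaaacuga
The hairpin holds 25 U among its 82 bases (30.5%). The 5p form, from the arm under the peak, holds 8 U in 22 bases (36.4%) and the 3p form 6 in 23 (26.1%). These shares describe the hairpin and its mature forms, not the peak. No background share was taken, and a preference for U was not tested.

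The 34 loci lay on 15 chromosomes, 19 on the plus and 15 on the minus strand. Each was named for 1 gene, 33 genes in all, since HELLS held 2 separate loci. At least 1 peak, in the ARL6IP1 locus, lay outside the named gene. Without an hg19 annotation, gene ends were not checked for the other peaks, and some may lie beyond them. By the role of the named gene, 16 loci with 114 peaks belonged to RNA-binding and splicing proteins. Another 7 loci with 48 peaks were named for genes of the secretory pathway and membranes, and 4 loci with 56 peaks lay in noncoding RNAs. Chromatin genes held 3 loci with 19 peaks, the cytoskeletal and nucleolar genes ACTG1 and NPM1 held 11 peaks, and MAT2A and IRS4 held the remaining 11. Gene lists drawn up with earlier results in view gave 4 of 15 hnRNP genes, 3 of 11 SR and related genes, 3 of 9 noncoding RNAs and 1 of 8 endoplasmic reticulum chaperone genes with such a locus. Across the whole list, 34 of 1570 loci had 5 or more peaks. Loci are not genes, and no share over all genes was available, so nothing is read from these counts.

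**Figure D1:**
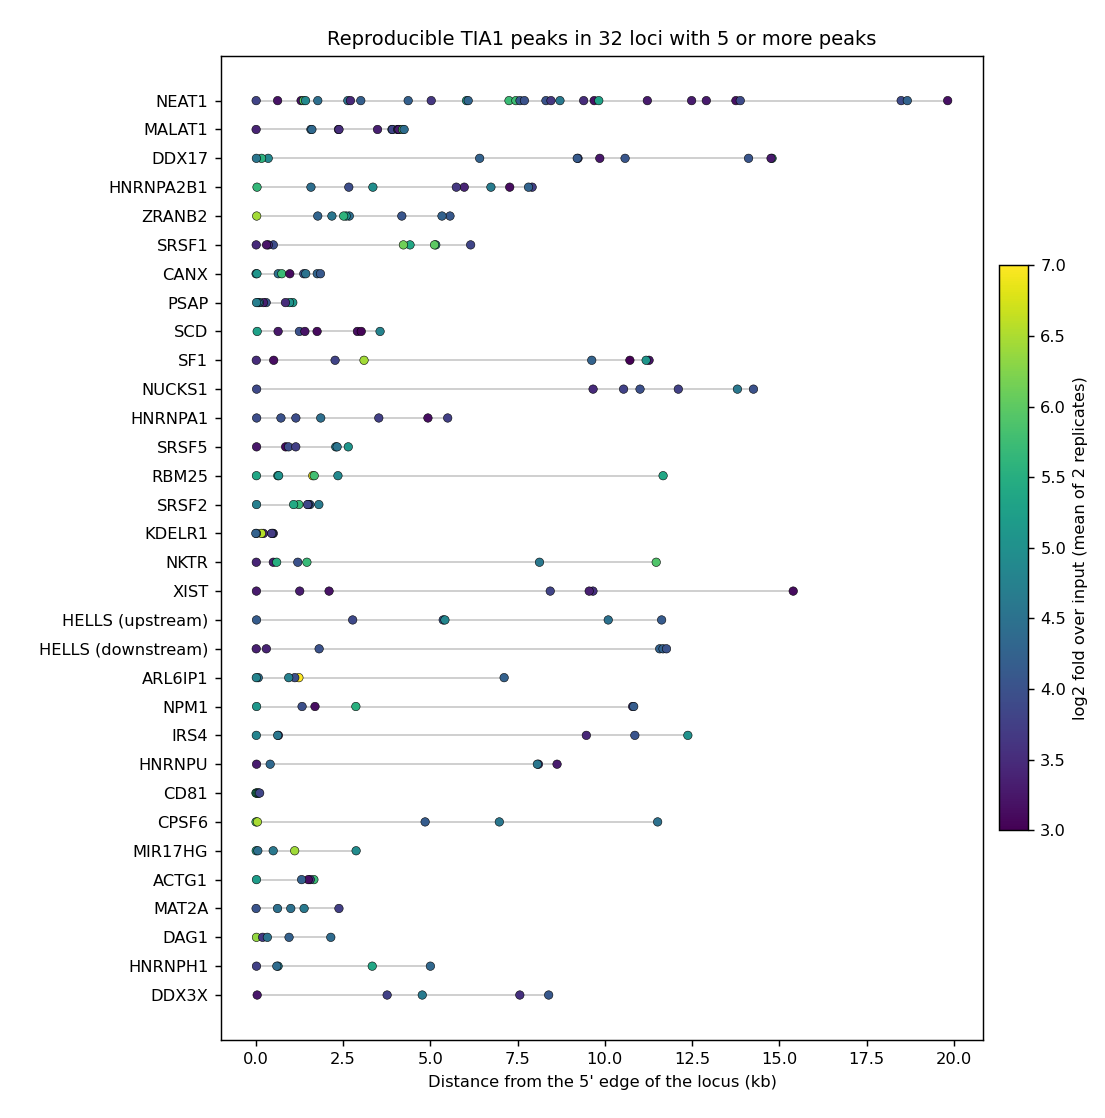
Position of 247 peaks along 32 of the loci. The horizontal axis is the distance from the 5′ edge of the first peak in kb, each point is the centre of 1 peak, and colour gives its log2 fold over input; NEAT1 holds 31 peaks over 19846 nt and CD81 holds 5 within 134 nt.

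Loci spanned from 134 nt in CD81 to 19846 nt in NEAT1, with a median of 7534.5 nt. In all, 2 were shorter than 1000 nt, 19 spanned 1000 to 10000 nt and 13 were longer. Over the 225 gaps between neighbours the median was 448 nt, and the middle of the distribution ran from 76 to 1111 nt. In 159 gaps (70.7%) fewer than 1000 nt separated the peaks, while 15 gaps were longer than 5000 nt. In 32 gaps (14.2%) no base lay between the peaks, so that a continuous stretch had been listed as several peaks. Joining such peaks left 227 stretches. It also left 28 loci with 5 or more, and took KDELR1, HNRNPU, CPSF6, MIR17HG and HNRNPH1 to 4 stretches each and CD81 to 1.

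The threshold of 5 peaks separated loci with similar values. The 33 loci with 4 peaks spanned 179 to 18357 nt, with a median of 2938 nt and a median log2 fold of 4.21. The 10 loci with exactly 5 spanned 134 to 19180 nt, with a median of 3967 nt and a median log2 fold of 4.46. The limit of 10000 nt was not crossed narrowly by a member: the longest gap inside a locus was 9730 nt, and the shortest distance from a locus to the next peak outside was 13000 nt.

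NEAT1, the nuclear RNA that scaffolds paraspeckles, carried more peaks than any other locus. Its 31 peaks lay at chr11:65192274-65212119 on the plus strand, none adjoining, with a median gap of 343.5 nt and widths of 10 to 77 nt. The highest fold was at chr11:65193626-65193664, with 5.93 in replicate 1 and 6.01 in replicate 2 (mean 5.97 ± 0.051, SD, n = 2). That peak held 115 and 90 reads against 2 in the input, and it also had the highest −log10 p of the locus, 31.5. A neighbouring pair of strong peaks lay further downstream, at 65199509-65199549 with 5.41 and 6.04, and at 65199701-65199750 with 5.75 and 5.74. Peaks were denser and stronger toward the 5′ side. The first 10 kb from the first peak held 23 peaks with a median log2 fold of 4.19 and a maximum of 5.97, whereas the remaining 8 had a median of 3.30 and a maximum of 4.25. Input reads differed along the RNA as well, with a median of 3 at the first 23 peaks and 6.5 at the others, and their part in the fold was not tested. A gap of 4552 nt set the last 3 peaks apart from the first 28.

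MALAT1, an abundant RNA of nuclear speckles, followed with 13 peaks at chr11:65268313-65272601 on the plus strand. They formed 7 stretches, because 6 pairs adjoined, and 11 of the 13 were narrower than 30 nt. One was 3 nt wide, at 65272215-65272217, with 209 and 202 reads; the 26 nt peak beside it held 365 and 329. The highest fold, 5.27 in replicate 1 and 6.49 in replicate 2 (mean 5.88 ± 0.87), was at 65272517-65272527, 98.1% of the way to the 3′ edge. Here the replicates differed more than at most members. Its −log10 p stood at the authors' ceiling of 400, as did that of the first and the last peak of the locus, and reads could not be recovered there. Where they could, the input held 4 to 30 reads with a median of 15, far above the median of 2 over all members.

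XIST, the RNA that coats the inactive X chromosome, had a wide locus of low folds. Its 7 peaks at chrX:73041844-73057254 on the minus strand ran from 3.12 to 3.80, and none reached 4. The highest, at 73048800-73048836, had 3.89 in replicate 1 and 3.71 in replicate 2, with 98 and 64 reads over 7 in the input. The peak with the highest −log10 p, at the ceiling, was 73047556-73047633 with 3.52 and 3.58. The widest XIST peak, of 92 nt, lay 23 nt from it and held 341 and 290 reads over 38 input reads. Gaps within XIST ran from 23 to 6305 nt with a median of 1129.5 nt. Of the clusters that the authors called along the locus, 4 of 38 were enriched in replicate 1 and 8 of 36 in replicate 2. Over all clusters the shares were 3.09% and 5.32%, and the locus was chosen for reproducible peaks.

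**Figure D2:**
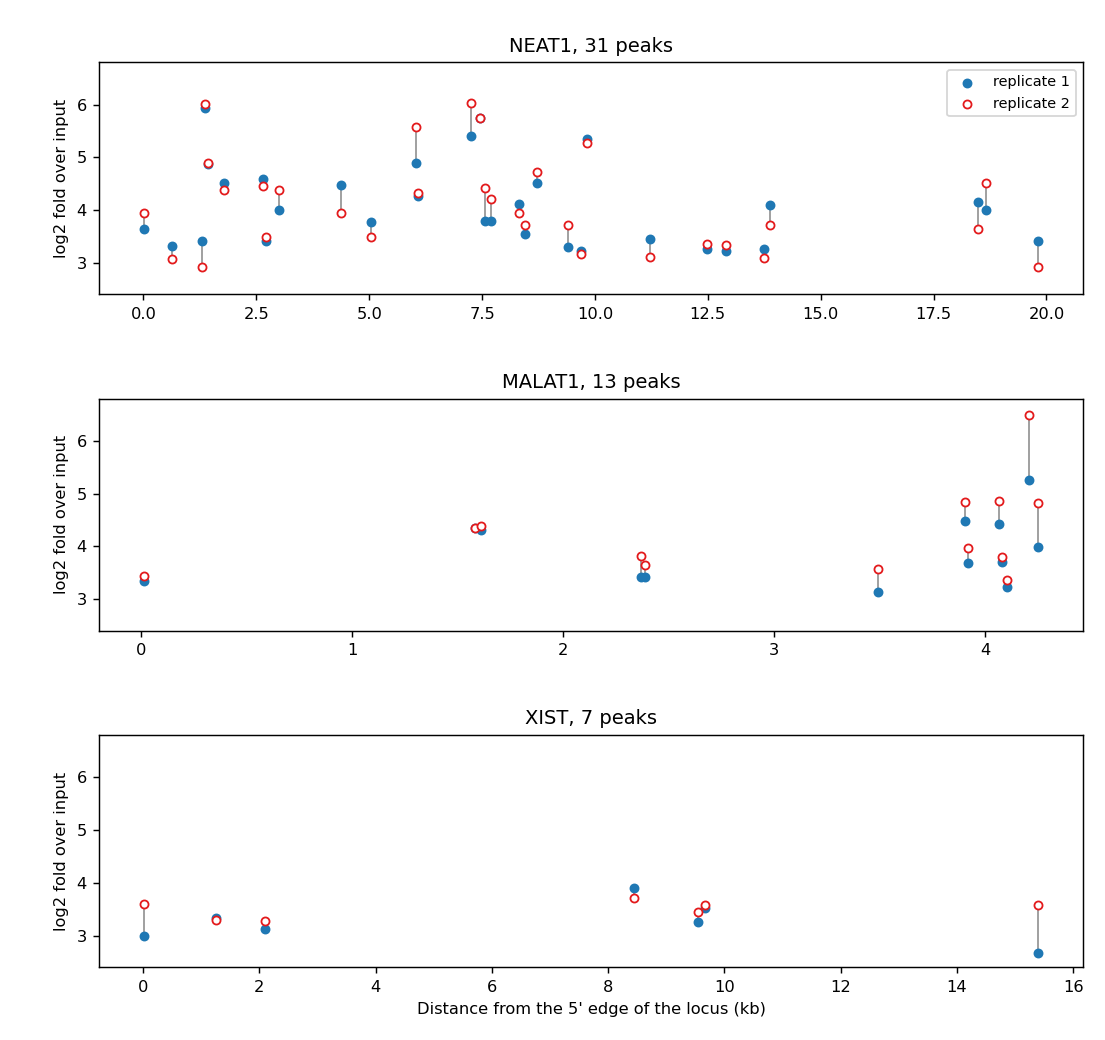
Log2 fold over input of each peak of NEAT1, MALAT1 and XIST in both replicates, against distance from the 5′ edge of the locus in kb. Filled points are replicate 1, open points replicate 2 and the grey line joins them; NEAT1 peaks reach 5.97 in the first 10 kb and 4.25 beyond, MALAT1 is highest near its 3′ edge, and all 7 XIST peaks lie under 4.

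MIR17HG was the shortest of the noncoding loci, 2900 nt at chr13:92002045-92004944, and its 5 peaks had higher folds, 4.45 to 6.43. The peak over MIR19A had 6.57 in replicate 1 and 6.29 in replicate 2 (mean 6.43 ± 0.20), from 268 and 164 reads over 3 in the input. Nearby, over the MIR18A hairpin by position, the authors' clusters were not enriched: 0.79 at 92003009-92003031 in replicate 1 and 1.78 at 92003013-92003030 in replicate 2. The input under those clusters held 8 and 5 reads, more than the 3 under the MIR19A peak. Upstream, 2 adjoining peaks at 92002045-92002076 and 92002077-92002136 had mean folds of 5.35 and 4.45.

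Genes for RNA-binding and splicing proteins formed the largest group. Their loci spanned 1830 to 19180 nt with a median of 8542.5 nt, and peaks covered a median of 3.74% of each locus. Log2 folds over the 114 peaks had a median of 4.22, beside 4.16 over all members. A fold of 5 was reached at 27 of them (23.7%), beside 20.1% of all members and 12.3% of all reproducible peaks.

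Of these loci, 3 belonged to SR proteins, which bind exonic enhancers and regulate splicing. SRSF1 held 9 peaks over 6195 nt at chr17:56076836-56083030 (minus), 27 to 76 nt wide, with a median gap of 197.5 nt. Its top peak, 56078767-56078831, gave 6.13 in each replicate, from 329 and 245 reads over 5. In SRSF2, 7 peaks lay within 1830 nt at chr17:74730354-74732183 (minus), 11 to 51 nt wide, and the highest, 74730930-74730964, had 5.84 and 5.54. SRSF5 had 7 peaks over 2672 nt at chr14:70235998-70238669 (plus), 24 to 72 nt wide, with a median gap of 215 nt. The highest fold there was at the 3′ edge, 70238631-70238669, with 4.77 and 5.40. The highest −log10 p of SRSF5 was 51.7, at 70238304-70238356, where the folds were 4.94 in replicate 1 and 4.15 in replicate 2.

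Another 4 loci lay in genes of hnRNPs, the proteins that package nascent transcripts. HNRNPA2B1 had 10 peaks at chr7:26230859-26238786 (minus), 7 to 85 nt wide, with a median gap of 665 nt. The first from the 5′ side, 26238709-26238786, was the strongest, with 5.61 and 5.70 and with 184 and 146 reads over 4. HNRNPA1 folds lay within a narrow range: 7 peaks at chr12:54674626-54680155 (plus), 30 to 60 nt wide and 391 to 1608 nt apart, had folds from 3.15 to 4.44. The highest, 54676465-54676514, had 4.41 and 4.47; the highest −log10 p, 12.4, was at the 5′ edge, 54674626-54674682, with 3.84 and 4.01. HNRNPH1 held 5 peaks over 5034 nt at chr5:179043785-179048818 (minus), with 5.41 and 5.37 at its highest, 179045466-179045493. In HNRNPU, 5 peaks over 8664 nt at chr1:245017630-245026293 (minus) were split by a gap of 7629 nt, and the highest, 245018216-245018235, had 4.50 and 4.66.

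Helicases and other splicing factors made up most of the rest. DDX17, a DEAD-box RNA helicase, held 11 peaks over 14804 nt at chr22:38879589-38894392 (minus), 13 to 74 nt wide, with gaps of up to 5994 nt. Its highest fold lay at the 3′ edge, 38879589-38879618, with 5.61 and 5.56. The highest −log10 p of DDX17, 50.0, belonged to a low-fold peak, 38884506-38884568, with 3.41 and 3.11 from 389 and 236 reads over 39 in the input. DDX3X, a helicase that acts in translation, had 5 wide peaks, 59 to 87 nt, over 8421 nt at chrX:41198361-41206781 (plus), the highest at 41203098-41203166 with 4.84 and 4.42. ZRANB2, a zinc finger protein of the spliceosome, held 9 peaks at chr1:71529289-71534875 (minus), 27 to 87 nt wide and a median of 315 nt apart. Every ZRANB2 peak had a mean fold above 4. The strongest was at the 5′ edge, 71534817-71534875, with 6.34 and 6.56, and 76 and 66 reads over 1.

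RBM25, which associates with the spliceosome, had the highest folds of any locus with 7 or more peaks. Its 7 peaks at chr14:73566480-73578182 (plus) ran from 4.89 to 6.90 with a median of 5.38, in widths of 20 to 69 nt. A gap of 9251 nt set the last peak apart from the first 6. The strongest, 73568097-73568134, gave 6.84 and 6.95 (mean 6.90 ± 0.076), from 324 and 260 reads over 3, and its −log10 p of 94.3 was the highest of all members below the ceiling. NKTR, a cyclophilin-domain protein with an arginine-serine region, had 7 peaks over 11493 nt at chr3:42660639-42672131 (plus), 37 to 63 nt wide, with a median gap of 505.5 nt. At its 3′ edge, 42672089-42672131, folds were 5.82 and 5.97, and the highest −log10 p, 21.8, was at 42661219-42661261 with 5.51 in each replicate.

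SF1, the branch point binding protein, spread 8 peaks over 11294 nt at chr11:64532642-64543935 (minus), with widths of 37 to 67 nt and gaps of 24 to 6479 nt. One stood out at 64540810-64540853, with 6.09 and 6.82 from 64 and 79 reads over 1; the median of the locus was 3.66. CPSF6, a subunit of the cleavage factor that sets poly(A) site choice, had 5 peaks over 11536 nt at chr12:69656520-69668055 (plus), led by 69656542-69656597 with 6.24 and 6.70.

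Loci in genes of the secretory pathway and membranes were compact. The spans of 6 of the 7 were 134 to 3579 nt. That of ARL6IP1 was 7141 nt as joined, but 1303 nt without a peak in a neighbouring gene. The median gap was 77 nt against 577.5 nt in the RNA-binding group, and both medians count adjoining peaks with no base between them. Peaks covered a median of 16.1% of each secretory or membrane locus. Spans under 5000 nt also occurred in other groups, at ACTG1, MAT2A, 2 noncoding loci and 2 loci of the RNA-binding group. By hg19 position, CD81, KDELR1, PSAP, SCD, CANX and DAG1 peaks lay toward the 3′ ends of their genes. Since the rule bounded the gaps, these differences were not tested.

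CD81, a tetraspanin of the cell surface, had 5 adjoining peaks that filled chr11:2418204-2418337 (plus) without a break. From 5′ to 3′ the folds in replicate 1 were 5.64, 5.42, 5.71, 5.30 and 3.87, and in replicate 2 they were 5.64, 5.43, 5.71, 4.80 and 3.80. The third peak, 2418241-2418288, held 296 and 220 reads over 6, with a −log10 p of 64.7. The profile was thus flat over the first 3 peaks and fell toward the 3′ edge in both replicates. All clusters that the authors called there were enriched, 5 of 5 in replicate 1 and 4 of 4 in replicate 2. Over all clusters the shares were 3.09% and 5.32%. The peaks that define this locus cover all of it, so nothing is read from its shares.

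KDELR1, the receptor that returns proteins to the endoplasmic reticulum, packed 7 peaks into 514 nt at chr19:48885939-48886452 (minus), 8 to 69 nt wide with a median gap of 3.5 nt. One peak, 48886254-48886322, dominated with 6.32 and 6.81 from 150 and 157 reads over 2, while the other 6 had mean folds between 3.27 and 4.50. PSAP, the precursor of the lysosomal saposins, had 8 peaks over 1079 nt at chr10:73576069-73577147 (minus), 24 to 51 nt wide with a median gap of 57 nt. At the 3′ edge of PSAP, 73576069-73576099 had 4.73 and 5.60, and at the 5′ edge 73577097-73577147 had 4.73 and 4.68 with the highest −log10 p, 17.0. CANX, calnexin, a lectin chaperone of the endoplasmic reticulum, had 9 peaks over 1866 nt at chr5:179155943-179157808 (plus), 20 to 52 nt wide with a median gap of 131 nt. Its strongest, 179156672-179156709, had 5.83 and 5.62, from 107 and 69 reads over 2.

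SCD, stearoyl-CoA desaturase, had the lowest median fold of all loci, 3.22, although its first peak was strong. That peak, chr10:102120913-102120999 (plus), was 87 nt wide and had 5.26 and 5.30 from 252 and 193 reads over 7. The 8 SCD peaks spanned 3579 nt to position 102124491, 32 to 87 nt wide, with a median gap of 481 nt. DAG1, dystroglycan, a receptor for the extracellular matrix, held 5 peaks over 2174 nt at chr3:49570852-49573025 (plus). It too was highest at its first peak, 49570852-49570897, with 6.30 and 6.42.

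ARL6IP1, a protein that shapes the endoplasmic reticulum, held the highest fold of all 259 members. Its locus was chr16:18797194-18804334 (minus), with 6 peaks of 38 to 129 nt. The peak at 18803032-18803160, also the widest member, had 6.87 in replicate 1 and 7.33 in replicate 2 (mean 7.10 ± 0.33), from 110 and 113 reads over 1. Within 1303 nt lay 5 of the peaks. The sixth, 18797194-18797243, lay 5788 nt downstream, by position in the neighbouring gene RPS15A, which encodes a ribosomal protein, and had 4.48 and 3.97.

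The remaining loci were 7. HELLS, a chromatin remodelling helicase, had 6 peaks at chr10:96331227-96342883 (plus) and 6 more at chr10:96361419-96373201. The upstream locus was highest at 96336616-96336678, with 4.58 and 5.10, and the downstream locus at 96373062-96373108, with 4.39 and 4.10. Gaps were longer upstream, with a median of 2537 nt against 238 nt, while 1 gap of 9695 nt split the downstream locus. NUCKS1, a chromatin protein, had 7 peaks of 36 to 56 nt over 14275 nt at chr1:205682537-205696811 (minus), with gaps of 416 to 9584 nt. Its folds lay in a narrow range, 3.48 to 4.61: the highest peak, 205682990-205683038, had 4.89 and 4.32, and that with the highest −log10 p, 205687125-205687171, had 3.45 and 3.51. None of the 19 peaks in chromatin genes reached a fold of 5, beside 20.1% of all members and 12.3% of all reproducible peaks. These 19 peaks lay in only 3 loci, so nothing is read from that count.

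ACTG1, cytoskeletal gamma-actin, held 5 peaks over 1687 nt at chr17:79477086-79478772 (minus), and the one at the 3′ edge, 79477086-79477123, was highest with 5.73 and 5.68. NPM1, the nucleolar protein nucleophosmin, had 6 peaks over 10852 nt at chr5:170817158-170828009 (plus), highest at 170819998-170820057 with 5.45 and 5.64. MAT2A, which makes S-adenosylmethionine, had 5 peaks, 326 to 958 nt apart, at chr2:85768530-85770930 (plus). Its folds were close together, 3.75 to 4.62, and 85769893-85769941 had 4.26 and 4.97. IRS4, an adaptor of insulin receptor signalling, had 6 peaks over 12405 nt at chrX:107963256-107975660 (minus), highest at the 3′ edge, 107963256-107963310, with 4.91 and 5.10.

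**Figure D3:**
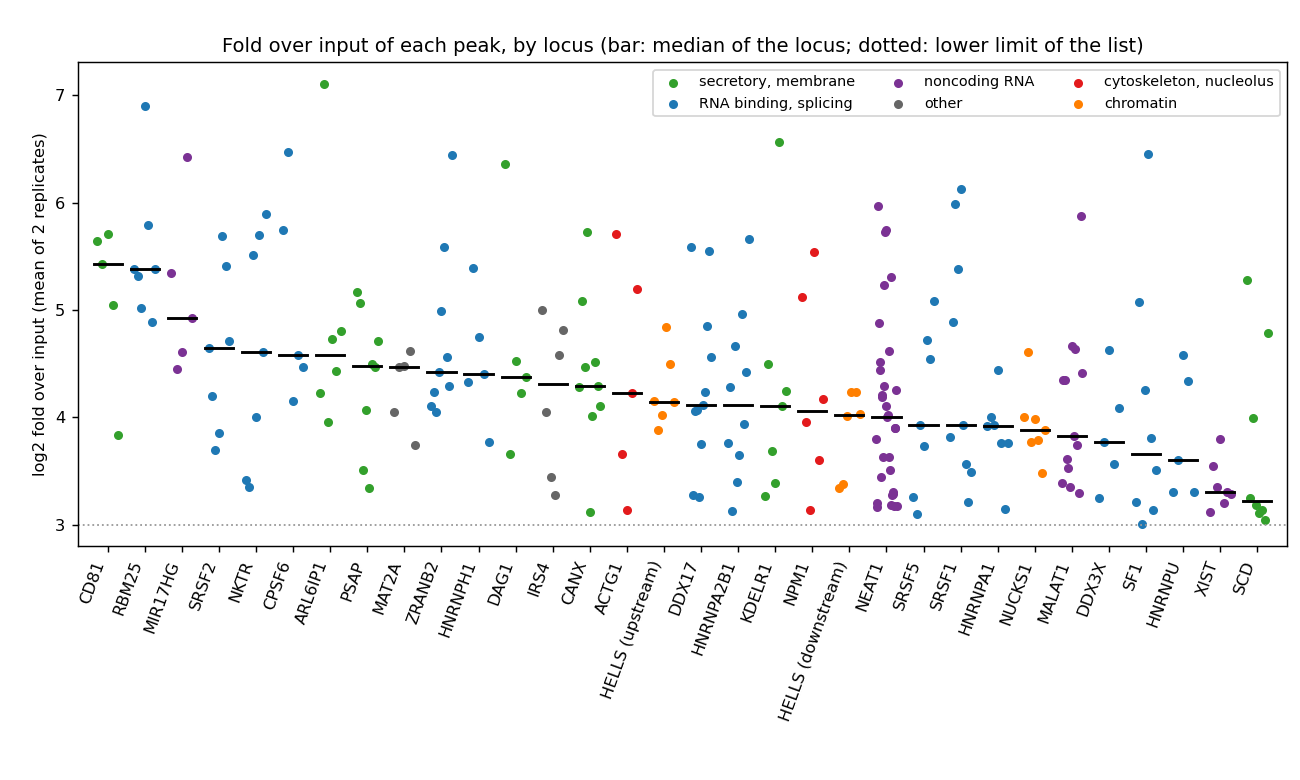
Log2 fold over input (mean of the replicates) of 247 peaks in 32 loci, with loci ordered by their median. Each point is 1 peak, the bar is the median of the locus, colour gives the gene group, and the dotted line is the lower limit of the list at 3; medians run from 5.43 in CD81 to 3.22 in SCD, and 24 of these 32 loci hold a peak of at least 5.

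Folds varied both between loci and within them. Locus medians ran from 3.22 to 5.43, and the difference between the highest and the lowest peak of a locus had a median of 2.01 on the log2 scale, with a range from 0.68 to 3.44. A fold of at least 5 occurred at 52 peaks in 26 loci. The strongest peak had no fixed place: it lay in the first 20% of the length of 9 loci and in the last 20% of 10.

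Members did not have higher folds at the median than the remaining list. Their median log2 fold was 4.16 (quartiles 3.62 and 4.74) beside 4.15 (3.69 and 4.57) for the 1994 other peaks. The upper tail was heavier, with 20.1% of members at a fold of 5 or more beside 11.3% of the others. Read numbers were higher, with medians of 41 beside 23 in replicate 1 and 37 beside 19 in replicate 2. The median −log10 p was 8.94 beside 4.74. Input numbers moved with these values: 22.5% of members had 5 or more input reads beside 6.82% of the other peaks, and 29.2% had an input number of 1 beside 54.1%. These are shares of peaks, which are not independent within a locus, and their part in the differences was not tested. Among members with recovered reads, 27 of the 51 with a fold of at least 5 had an input number of 1, so their folds rest on a denominator of a single read.

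Narrow peaks were more frequent in the loci. Member widths had a median of 41 nt (quartiles 31 and 52) beside 54 nt for the other peaks and 56 nt for peaks without a neighbour. Widths under 30 nt occurred at 59 members (22.8%), at 44 of the other peaks (2.21%) and at 3 of 1212 isolated peaks (0.248%). Adjoining peaks were narrower than the remaining members, with medians of 30 and 43 nt. Without NEAT1 and MALAT1, 36 of 215 members (16.7%) were under 30 nt.

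**Figure D4:**
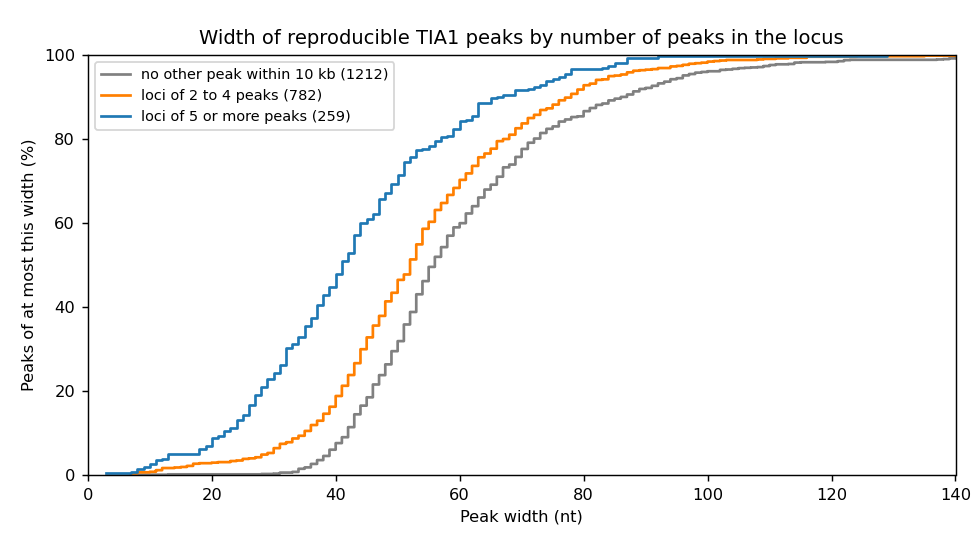
Cumulative share of peaks, in percent, against peak width in nt for isolated peaks, loci of 2 to 4 peaks and loci of 5 or more. Curves shift to narrower widths as the number of peaks in the locus rises, with medians of 56, 52 and 41 nt.

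The authors' lists of each replicate, before reproducibility was required, were also read along the loci. In replicate 1, 272 of the 712 clusters within the loci were enriched, with log2 fold and −log10 p both 3 or more, which is 38.2% (exact 95% binomial interval 34.6 to 41.9%). Over all 103134 clusters of that replicate the share was 3.09%. In replicate 2, 285 of 674 were enriched, 42.3% (38.5 to 46.1%), beside 5.32% of 66222. The loci were chosen for reproducible peaks, which are enriched clusters of these libraries, so nothing is read from the gap to all clusters. With limits of 4 and 5 the shares in the loci were 15.3% and 20.9%, beside 0.886% and 1.51% of all clusters, and with limits of 1 and 3 they were 54.8% and 62.0%, beside 4.14% and 6.36%. The intervals cover counting error only. Within the loci, 46 clusters in replicate 1 and 39 in replicate 2 had a negative log2 fold over the input, with no limit set on size or p-value. Neither list held a cluster on the opposite strand within a locus.

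Differences between the replicates were described first by fold. The absolute difference between replicates had a median of 0.30 on the log2 scale, beside 0.29 for the other peaks. Replicate 2 was higher at 169 of 259 members (65.3%), beside 57.5% of all peaks. Both replicates reached a fold of 3 at 242 members (93.4%), beside 95.4% of the other peaks. The enriched clusters of both replicates overlapped 232 members (89.6%), beside 88.6% of the other peaks.

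Reads at each peak were then compared between the 2 libraries with an exact binomial test (two-sided) against the pooled share of replicate 1, 56.3%, and Benjamini-Hochberg adjustment over all 2247 peaks with reads. At an adjusted p below 0.05, 6 of 253 members (2.37%) differed, beside 1.82% of all peaks tested. Members held more reads, with a median of 78 over both replicates beside 42. Among peaks with at least 100 reads the order of the shares was the other way, with 4 of 93 members called (4.30%) beside 27 of 204 other peaks (13.2%), a difference that was not tested. Of the 6, 4 were higher in replicate 2 and 2 in replicate 1. The largest difference was in DDX17 at 38887941-38888014, with 107 reads in replicate 1 and 266 in replicate 2, folds of 3.37 and 5.11 and an exact binomial adjusted p of 1.75e-23. A second DDX17 peak, 38894197-38894248, went the other way, with 66 and 22 reads (exact binomial adjusted p = 0.025). In SRSF5, 70238280-70238303 had 370 and 151 reads (exact binomial adjusted p = 6.01e-09). HNRNPH1 at 179048195-179048230 had 60 and 123 reads (1.42e-07, same exact test), HNRNPU at 245017630-245017694 had 37 and 63 (0.0099) and SRSF1 at 56082691-56082746 had 29 and 49 (0.048). In all 6 the higher replicate was the one whose cluster supplied the bounds of the peak. Over all 41 peaks called, that held for 19 of 23 with bounds from replicate 1 and 10 of 18 with bounds from replicate 2. All 6 lay in the RNA-binding group, which held 113 of the 253 members tested, and a difference between groups was not tested. This test compares 2 libraries, not conditions, and its p-values treat reads as independent and cover counting error only.

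**Figure D5:**
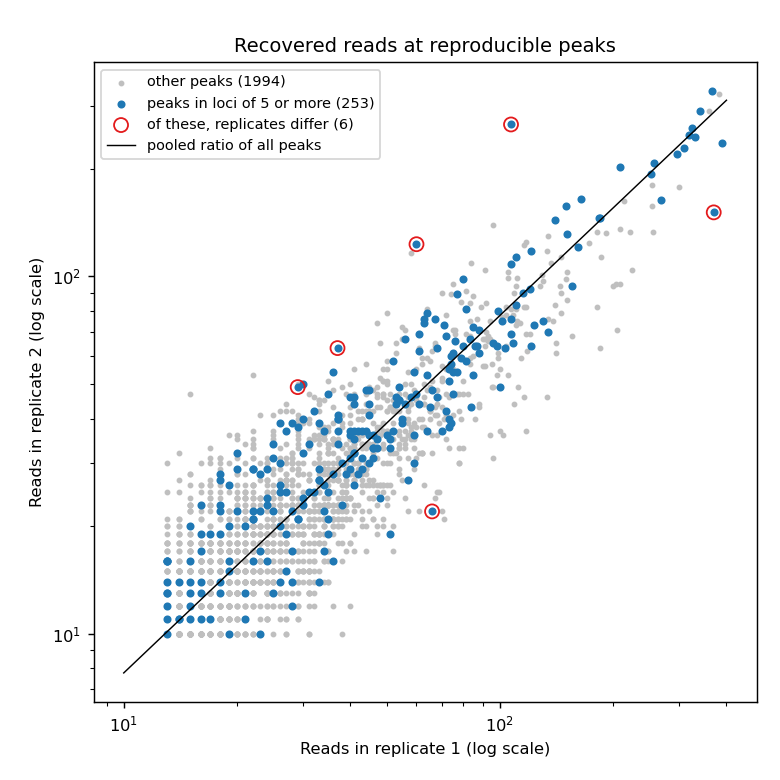
Recovered reads of replicate 2 against replicate 1 (both log scales) at 253 members and 1994 other peaks. The line is the pooled ratio of all peaks; the 6 circled members differ between the replicates at an adjusted p below 0.05, and DDX17 is the farthest from the line.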

How the data were processed

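The data were eCLIP peak lists of TIA1 in HEK293T: clusters called by the authors in each of 2 replicates, and 1 list of reproducible peaks. Reads were handled with STAR 2.4.0i, SAMtools 1.4.1 and cutadapt 1.14 and 1.9.1 on hg19, per the submitters' processing notes. Which program called clusters is not given in the sources used here. In both kinds of list, the deposited log2 values are the authors' fold of immunoprecipitated over input reads, and the deposited −log10 p-values compare both and stop at 400. The lists have no header, so units were read from the values. At 21 intervals shared by all 3 lists, the reproducible list held the mean log2 fold and the lower −log10 p in 21. No member was among these intervals.

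From these, peaks were joined across gaps of at most 10000 nt on a strand and loci with 5 or more kept. Members and gene lists were chosen with earlier results of these data known. Of the 34 loci, 32 are named and 2 are not reported here by themselves, although totals and medians include them. Those with 7 or more peaks are described at their peaks of highest log2 fold and highest −log10 p, the others at the peak of highest fold. Additional peaks given in DDX17, SRSF5, NEAT1, MALAT1, XIST, MIR17HG, ARL6IP1 and CD81 were chosen after their values were seen. All 33 gene symbols matched chromosome and strand in the GENCODE annotation of GRCh38.

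Reads were recovered from the log2 steps, within 1e-04 of whole numbers, and from p-values matched within a relative 2e-05 (Fisher's exact test under an observed or expected number of 5, Yates' chi-square otherwise). The multiple of the library totals, 3, was the one that best returned the p-values. Replicate values at a peak came from the list that supplied its bounds and, for the other, from the mean. Overlap meant at least 1 nt on 1 strand. Steps ran in Python 3.11.15 with scipy 1.17.1 and were tested on simulated data. With 2 replicates no spread beyond an SD of 2 values was available. Alternatives covered the gap, the number of peaks, the fold limit, adjoining peaks, each replicate left out and the test.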

Additional observations from a re-analysis of the deposited data

How the results depend on the processing

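Of 41 alternatives to the leading results, 30 stayed close to the reported value and 11 moved. Close meant within 1.5 times for counts, spacing and widths, and within the replicate spread for the median fold. For the enriched shares of clusters it meant inside the exact binomial interval. Requiring a log2 fold of at least 4 left 13 loci with 90 peaks and a median fold of 4.60. Accepting 4 or more peaks gave 67 loci and 391 peaks. Applying the rule to the enriched clusters of a single library gave 50 loci and 366 peaks without replicate 2, and 62 loci and 459 peaks without replicate 1. These loci overlapped 33 of the 34 without replicate 2, all but XIST, and 32 without replicate 1, all but KDELR1 and CD81. The median fold was 4.25 without replicate 1 and 4.02 without replicate 2. The replicate spread that defined close came from these same medians, so both alternatives were nearly bound to stay within it. With limits of 4 for the log2 fold and 5 for −log10 p, the enriched share of clusters in the loci was 15.3% in replicate 1 (0.886% of all clusters) and 20.9% in replicate 2 (1.51%). With limits of 1 and 3 it was 54.8% (4.14%) and 62.0% (6.36%). A joining gap of 5000 nt gave 27 loci and 20000 nt gave 40. The replicate test called 7 members with the share of the library totals and 5 with a chi-square test. Widths, and folds without adjoining peaks or without NEAT1 and MALAT1, were compared after seeing the data. The U share of peaks was not run, since no hg19 sequence was used here. No paired analysis was possible because the input is a single sample and enters only through the authors' values. Depth limits single folds where the input number is 1.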
